A study of Mus musculus with 8 samples.

Results

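The genes described here are 6 markers that are used to tell apart subsets of midbrain dopamine neurons or that bind calcium in them: Ndnf, Calb1, Calb2, Pvalb, Lpl and Anxa1. They were taken by name from the table of read counts, which holds 54735 genes, and all 6 were among the 16538 genes with enough counts to be tested. RNA was sequenced from punches of the ventral tegmental area (VTA) of DBA2/J mice whose age is given as postnatal day 21 in the labels and as the day after in the study's methods. Mice of the social stress group (SS) had met an unfamiliar adult mouse for 30 min on each of 7 consecutive days per the labels, which place these days between postnatal days 14 and 21, and mice of the control group (CTR) were left unhandled. There were 4 libraries per group, named CTR-1, CTR-2, CTR-3, CTR-5 and SS-2, SS-3, SS-4, SS-5, each from the left and right punch of 1 mouse labelled male, with no transgene or drug in either group. The question was whether SS lowered these markers to different degrees.

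Dopamine neurons of the midbrain share the enzymes and transporters that make, pack and take up dopamine, such as tyrosine hydroxylase (Th) and the dopamine transporter (Slc6a3), and are divided into subsets by further genes. Calbindin (Calb1) marks many neurons of the VTA and of the dorsal tier of the substantia nigra, whereas Aldh1a1, Ndnf and Anxa1 are best known from ventral neurons of the nigra and Calb2, which encodes calretinin, and Lpl from part of the neurons of both regions. None of the 6 is made by dopamine neurons alone: parvalbumin (Pvalb) is a marker of fast-spiking GABA neurons, calretinin is found in many GABA and glutamate neurons, and Lpl and Anxa1 are also made by neurons of the forebrain or by immune cells. A punch holds all of these cells. In such bulk RNA, fewer cells of a type, less RNA per cell and a different mix of tissue in the punch cannot be told apart. In stained sections of other mice, the study found no difference between CTR and SS in the number of VTA neurons with tyrosine hydroxylase. The subsets were not counted there.

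Library totals ranged from 20036086 to 47319997 counts, and CTR-5, SS-2 and SS-3 were the deepest. Levels are given as CPM, counts scaled to a common library size, after TMM normalization, which corrects for differences in RNA composition, with the mean ± SD of n = 4 libraries. A pair of libraries stood apart from their labels. CTR-5 had 14997 counts of Xist, which is transcribed from the inactive X chromosome of females, and SS-5 had 6551, compared with 0 to 3 in the other 6 libraries, while the counts of 4 genes of the Y chromosome (Uty, Kdm5d, Ddx3y and Eif2s3y) summed to 3 and 0 in these libraries but to 2293 to 7892 in the others. There was 1 such library in each group, and results are given with and without both. Th and Slc6a3 were present in every library, with 375 to 12627 counts of Th and 130 to 24064 counts of Slc6a3. Both were far lower in SS, with Slc6a3 at 2.72 to 11.5 CPM there and 243 to 613 CPM in CTR. Their presence therefore does not show that the punches of both groups held the same tissue.

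Of the 6 markers, Ndnf fell in SS, to 32.0% of its CTR mean, and was the only one to pass edgeR's test over all genes. Calb2 was at 93.2% and Calb1 at 71.6% of the CTR mean, and neither passed. Pvalb was at 43.7%, Lpl at 38.9% and Anxa1 at 12.3%, but the values of both groups overlapped for each of the 3. The test was edgeR's quasi-likelihood test with Benjamini-Hochberg adjustment, in which 0.0847% of the tested genes were lower in SS at an adjusted p under 0.05 and 0% were higher. All 6 markers had a lower mean in SS, where 8173 of all tested genes were fitted lower and 8365 higher, with a median log2 fold change of 0. For scale, Th was at 6.33% and Slc6a3 at 1.38% of the CTR mean, with log2 fold changes of -3.99 (SE 0.35) and -6.22 (SE 0.51) and an adjusted p = 0.00053 for both.

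**Figure D1:**
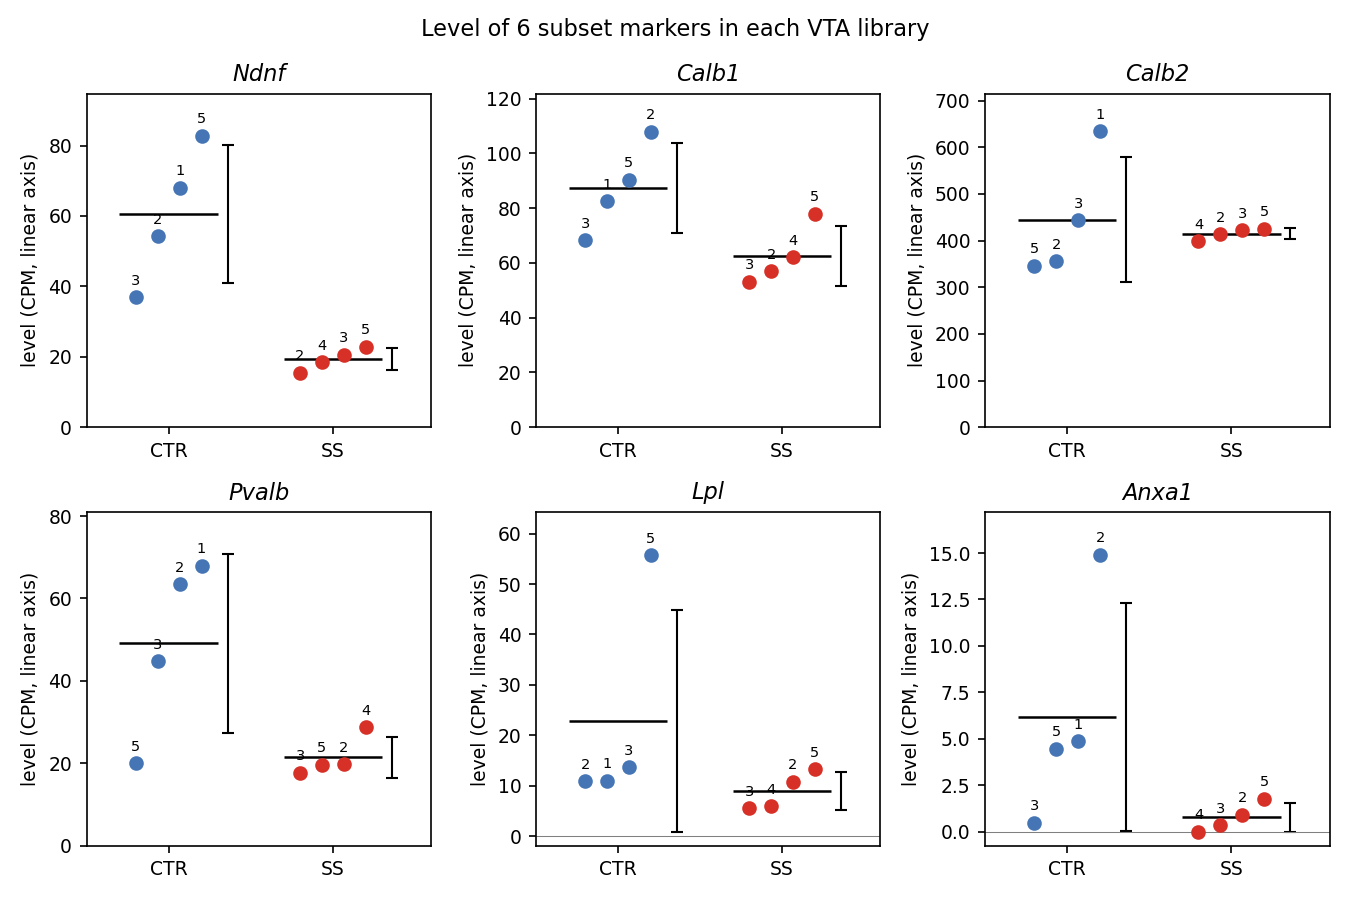
Level of each marker in CPM (linear vertical axis) in the 4 CTR (blue) and 4 SS (red) libraries, with the replicate number beside each point, a line at the group mean and a bar of 1 SD. The 4 SS values of Ndnf, 15.5 to 22.9 CPM, lie below all CTR values, while CTR-5 sits among the SS libraries for Pvalb and far above every other library for Lpl.

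Ndnf encodes neuron-derived neurotrophic factor, a secreted glycoprotein, and lies on the forward strand of chromosome 6 (chr6:65671590-65712326, GRCm38). Its level was 68.0, 54.2, 36.9 and 82.8 CPM in CTR and 15.5, 20.5, 18.4 and 22.9 CPM in SS, with the libraries in the order in which they were named above, as in all such lists that follow. Every SS library was below every CTR library, and the CTR libraries were spread more widely, with 60.5 ± 19.6 CPM against 19.3 ± 3.13 CPM. The log2 fold change was -1.65 (SE 0.23, 95% interval -2.14 to -1.15, adjusted p = 0.021), which placed Ndnf at rank 9 of all tested genes by p. Values that did not overlap and were lower in SS were found for 2.21% of the tested genes, and Ndnf was 1 of 6 markers with that pattern (exact two-sided permutation test, p = 0.029, the smallest that 4 against 4 libraries can give). The direction held without any 1 library, with log2 fold changes of -1.83 to -1.45, but the call was lost when any 1 of the 4 SS libraries was left out: the adjusted p became 0.12, 0.11, 0.18 and 0.055 on removal of each in the same order. Without both CTR-5 and SS-5 it was -1.55 (adjusted p = 0.12).

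The other 2 secreted or membrane-associated markers, Lpl and Anxa1, had lower means in SS that rested on 1 or a few CTR libraries. Lpl encodes lipoprotein lipase, which releases fatty acids from lipoprotein particles, and lies at chr8:68880491-68907448 on the forward strand. Its values were 11, 10.9, 13.6 and 55.7 CPM in CTR, the last of them that of CTR-5, and 10.8, 5.48, 5.95 and 13.2 CPM in SS. Apart from CTR-5 the CTR values lay within or just above the SS range. The means were 22.8 ± 22.0 and 8.86 ± 3.78 CPM, and the log2 fold change of -1.37 (SE 0.52, 95% interval -2.52 to -0.22) did not pass the test (adjusted p = 0.75). Without CTR-5 it was -0.41 (adjusted p = 0.64), and without CTR-5 and SS-5 it was -0.67 (adjusted p = 0.51).

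CTR-5 was also the library with the most RNA of excitatory neurons of the cortex and hippocampus and of the choroid plexus. The 8 genes listed for the former, all of them tested, summed to 548 CPM in CTR-5, 54.4 to 317 CPM in the other CTR libraries and 91.6 to 160 CPM in SS, and the vesicular glutamate transporter Slc17a7 alone was at 403 CPM in CTR-5. The 6 genes listed for ependyma and choroid plexus summed to 252 CPM in CTR-5 and to 14.7 to 35.3 CPM in all others. Transthyretin (Ttr) made up 234 CPM of the sum in CTR-5. Tmem212 was at 0 in every library. Folr1 and Ccdc153 were too rare to test, at 0 in SS and at means of 0.395 and 0.159 CPM in CTR. Their SD in CTR was 200% of the mean, the value given when a single library holds all the counts. Neurod6, which marks a subset of VTA dopamine neurons as well as forebrain neurons, was at 75.6 CPM in CTR-5 and at 4.26 to 16.5 CPM in the other 7 libraries. The part of these cells in the level of Lpl was not tested.

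Anxa1 encodes annexin A1, a calcium-dependent phospholipid-binding protein that acts on formyl peptide receptors, and lies at chr19:20373428-20390944 on the reverse strand. It was the rarest of the 6, with 94, 369, 11 and 175 counts in CTR and 38, 17, 0 and 46 counts in SS. In CPM these were 4.86, 14.9, 0.475 and 4.46 in CTR and 0.909, 0.353, 0 and 1.77 in SS, where the count of 0 in SS-4 allows up to 0.113 CPM, a limit that covers counting error only. CTR-3 lay inside the SS range and the other CTR libraries above it. The log2 fold change of -3.03 had an SE of 1.08 and a 95% interval of -5.40 to -0.66, and it did not pass (adjusted p = 0.75, exact permutation p = 0.086). Without CTR-2 it was -2.11, and without CTR-5 and SS-5 it was -3.97 (adjusted p = 0.36). A long noncoding RNA, 1500015L24Rik, overlaps Anxa1 on the other strand and had 254 counts over all 8 libraries. The strand setting of the read counting is not given in the sources used here, so reads of the pair may not be separated.

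The markers that bind calcium through EF-hand motifs, Calb1, Calb2 and Pvalb, did not pass the test, and they had unlike values. These proteins buffer calcium in the cytoplasm of neurons. Calb1 (chr4:15881264-15908064, forward strand) had levels of 82.6, 108, 68.3 and 90.4 CPM in the CTR libraries and of 56.9, 53.2, 62.1 and 77.9 CPM in the SS libraries. SS-5 lay above CTR-3, and the other SS libraries lay below all CTR libraries. The means were 87.3 ± 16.5 and 62.5 ± 10.9 CPM. The fitted difference was -0.48 on the log2 scale (95% interval -0.83 to -0.14, SE 0.16), with an unadjusted p = 0.011 and an adjusted p = 0.71 in edgeR's test over all genes. Without CTR-5 and SS-5 it was -0.59 (adjusted p = 0.30).

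Calb2 (chr8:110137502-110168210, reverse strand) had the highest level of the 6, per length of exon as well. In CTR it was at 634, 356, 444 and 346 CPM, and in SS at 414, 422, 398 and 425 CPM. All SS values lay inside the CTR range, and the SS libraries were much closer to each other, with a coefficient of variation of 2.91% against 30.0% in CTR. A smaller spread in SS was not particular to Calb2. It was 2.85% against 35.3% for Sox6 and 4.73% against 25.6% for Apoe, while Calm2 went the other way with 6.43% against 3.24%. The log2 fold change was -0.10 (SE 0.16, adjusted p = 0.92), with a 95% interval of -0.46 to 0.26. Without CTR-1 its sign changed, to 0.12, and without CTR-5 and SS-5 it was -0.22 (adjusted p = 0.73).

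Pvalb (chr15:78191114-78206400, reverse strand) reached 68.0, 63.5, 44.8 and 20 CPM in CTR, against 19.8, 17.7, 28.8 and 19.6 CPM in SS. CTR-5 lay within the SS range, and the other CTR libraries lay above it. The means were 49.1 ± 21.8 and 21.4 ± 4.97 CPM, and the fitted log2 difference was -1.19 (95% interval -1.88 to -0.50, SE 0.32). The call depended on the tool and on CTR-5. The adjusted p was 0.51 in edgeR's quasi-likelihood test and 0.045 in DESeq2, which called 0.419% of the genes it tested in either direction. Without CTR-5 edgeR gave -1.46 (adjusted p = 0.041), and without CTR-5 and SS-5 it gave -1.42 (adjusted p = 0.15).

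**Figure D2:**
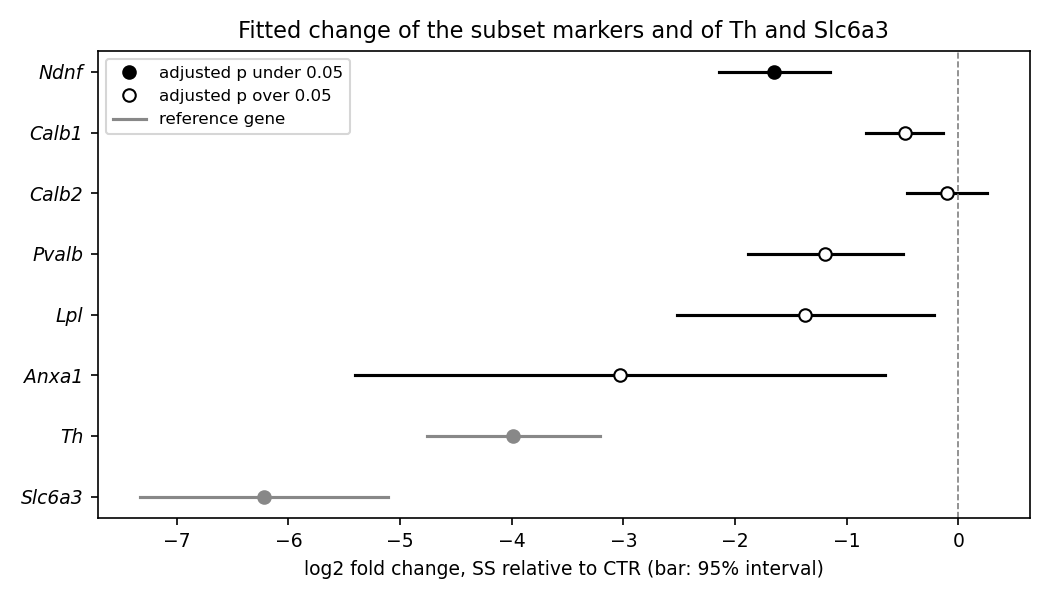
Fitted log2 fold change of each marker (black) and of Th and Slc6a3 (grey), SS relative to CTR, with bars for the 95% interval and a filled point where the adjusted p was under 0.05. Among the 6 markers the interval of Calb2 (-0.46 to 0.26) is the only one that includes 0, and Anxa1 has the widest, -5.40 to -0.66. The intervals are not adjusted for the number of genes. Of the 16538 tested genes, 612 were lower and 471 higher in SS at an unadjusted p under 0.05 in edgeR's test.

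Promoter sequences were at hand for 2 of the 6 markers, Pvalb and Anxa1, and are shown because these are the marker whose call depended on the tool and the rarest one. Each runs from 250 bases before to 50 bases after a start site in RefSeq (GRCm38.p6), that of Pvalb at chr15:78206351-78206650 and that of Anxa1 at chr19:20390622-20390921, both read on the reverse strand, with capitals for a TATA box.
Pvalb: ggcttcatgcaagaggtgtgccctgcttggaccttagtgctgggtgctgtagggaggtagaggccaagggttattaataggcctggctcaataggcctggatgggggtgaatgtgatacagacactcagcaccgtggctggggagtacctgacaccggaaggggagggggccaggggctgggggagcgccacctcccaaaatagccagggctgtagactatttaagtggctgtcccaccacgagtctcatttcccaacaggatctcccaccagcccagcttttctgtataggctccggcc
Anxa1: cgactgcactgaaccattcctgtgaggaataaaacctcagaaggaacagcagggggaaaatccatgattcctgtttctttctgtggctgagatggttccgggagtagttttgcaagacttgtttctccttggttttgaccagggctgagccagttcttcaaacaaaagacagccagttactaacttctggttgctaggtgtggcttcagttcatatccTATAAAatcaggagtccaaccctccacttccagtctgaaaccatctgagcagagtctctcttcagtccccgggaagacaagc
The letters of the binding site of Nr4a2 and related receptors (AAAGGTCA), of the core Pitx site (TAATCC) and of the TATA box (TATAAA) were searched on both strands. The sole match was TATAAA in Anxa1, which begins at position -32 from the start site. Of 32851 RefSeq mouse promoters of the same length, 13.6% held the TATA box, 1.51% the Nr4a2 letters and 7.06% the Pitx letters. Pvalb has a further start site in this table, with no match in its window.

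Per kilobase of exon, the order of the CTR means was Calb2 with 255 CPM, Pvalb with 47.2 CPM, Calb1 with 18.0 CPM, Ndnf with 5.98 CPM, Lpl with 2.17 CPM and Anxa1 with 2.12 CPM. Calb2, at 198 to 364 CPM per kilobase over the CTR libraries, did not overlap with Pvalb at 19.3 to 65.4. Pvalb overlapped with Calb1 (14.1 to 22.3), and Ndnf (3.65 to 8.18) overlapped with Lpl (1.04 to 5.31) and with Anxa1 (0.163 to 5.12), but within a library the order of Pvalb over Calb1, of Ndnf over Lpl and of Ndnf over Anxa1 was the same in all 4 CTR libraries. Lpl was over Anxa1 in 2 of the 4 CTR libraries and in all 4 SS libraries. The order of the means was the same in SS, with 238 CPM per kilobase for Calb2, 20.6 for Pvalb and 12.9 for Calb1. Ndnf was at 1.91, Lpl at 0.845 and Anxa1 at 0.260. There Pvalb (17.0 to 27.6) no longer overlapped with Calb1 (11 to 16.1), and Ndnf (1.54 to 2.27) no longer overlapped with Lpl (0.523 to 1.26).

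Whether SS lowered 1 marker more than another was tested on the log2 ratio of each pair within a library, over 15 pairs. Ndnf was lower relative to Calb1 and relative to Calb2 in every SS library than in any CTR library. The log2 ratio of Ndnf to Calb1 was -0.28, -0.99, -0.89 and -0.13 in CTR and -1.87, -1.37, -1.75 and -1.76 in SS. The mean ratio thus differed by -1.12 between SS and CTR (SE 0.24). The log2 ratio of Ndnf to Calb2 was -3.22, -2.72, -3.59 and -2.06 in CTR and -4.73, -4.36, -4.43 and -4.21 in SS, a difference of -1.54 (SE 0.35). Both pairs gave the smallest p the exact two-sided permutation test allows (p = 0.029), and with Benjamini-Hochberg adjustment over 15 pairs the p was 0.21. At least 9 of the 15 pairs would have to be without overlap for any to reach an adjusted p under 0.05, so 2 could not pass. Of all pairs of tested genes, 4.59% had ratios that did not overlap between the groups. Both pairs stayed without overlap when CTR-5 and SS-5 were left out, with differences of -0.94 and -1.33.

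The other 13 pairs overlapped. Calb2 was higher relative to Pvalb in SS by 1.02 (SE 0.37, exact permutation p = 0.057, adjusted p = 0.29), with log2 ratios of 2.49 to 4.10 in CTR and 3.79 to 4.57 in SS. Here too CTR-5 was the CTR library that reached into the SS range, and without it the ratio of Calb2 to Pvalb and that of Calb1 to Pvalb no longer overlapped, with differences of 1.29 and 1. Ndnf and Pvalb differed by -0.52 (SE 0.60, exact permutation p = 0.57), a sign that changed without CTR-5, to 0.03. Pvalb and Lpl had nearly the same mean change, with a difference of -0.01, with an SE of 1.04. The other 5 markers differed from Anxa1 by 1.38 to 2.91, with SEs of 1.34 to 1.55. These values moved with single libraries. Without SS-4, where Anxa1 had no count, the difference from Anxa1 was 0.44 for Ndnf, 1.53 for Calb1 and 1.98 for Calb2. It was then 0.79 for Pvalb and 1.11 for Lpl. Without CTR-2 it was 0.67 for Ndnf, 1.92 for Calb1, 2.14 for Calb2, 1.39 for Pvalb and 1.01 for Lpl. Without CTR-3 it was 2.08 for Ndnf, 3.3 for Calb1, 3.85 for Calb2, 2.82 for Pvalb and 2.71 for Lpl. The ratios of Calb1 and of Calb2 to Anxa1 then no longer overlapped between the groups (exact permutation test, adjusted p = 0.21 for both).

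**Figure D3:**
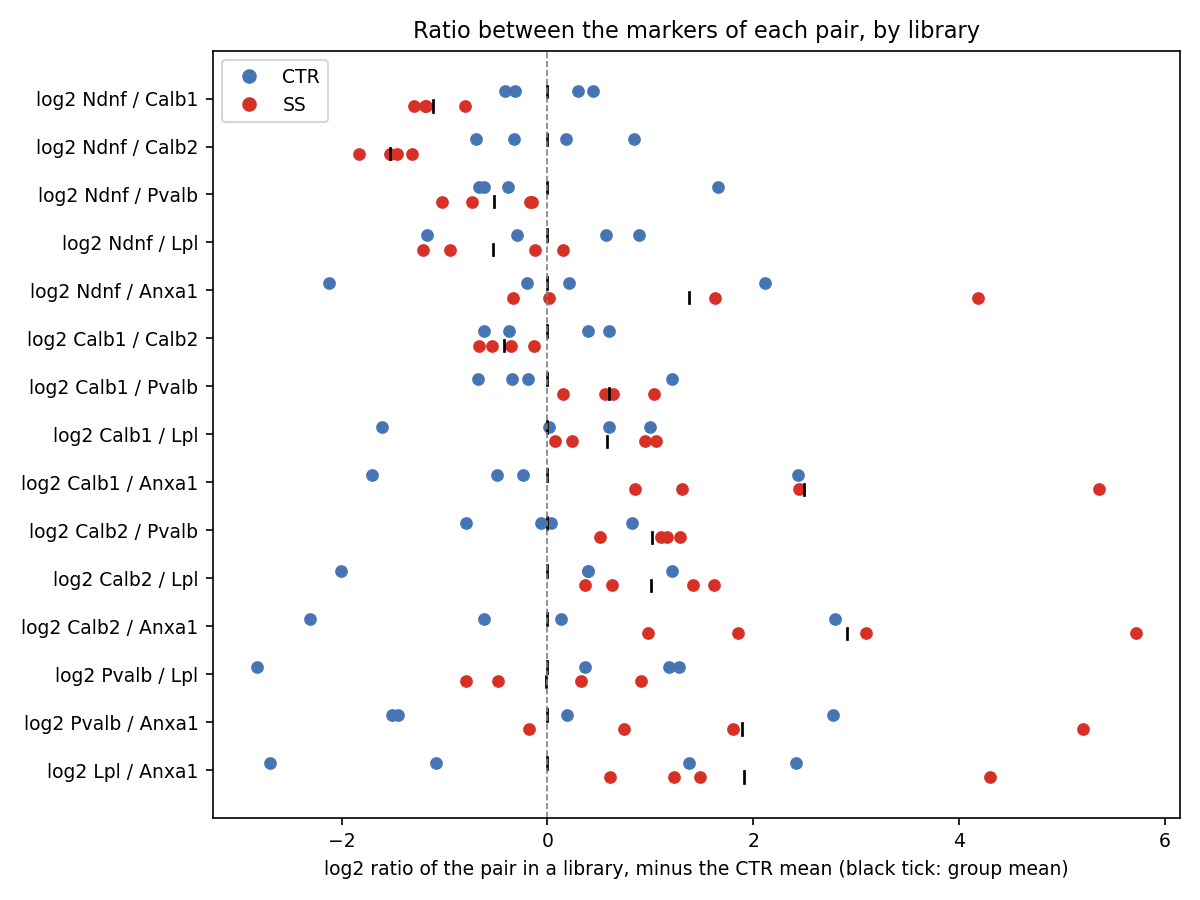
Log2 ratio of each of the 15 marker pairs in each CTR (blue) and SS (red) library, shifted so that the CTR mean is 0, with black ticks at the group means. The SS points of Ndnf to Calb1 and Ndnf to Calb2 lie left of all CTR points, and those of every other pair overlap with CTR.

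Among genes shared by all dopamine neurons 7 fell in edgeR's test, and among further subset markers 1 did. The 7 were of 16 pan-dopamine genes tested, of which none passed higher, compared with 0.0847% of all tested genes called lower. DESeq2 called 11 of the 16, all lower, compared with 0.419% of all genes it tested. Among these, Drd2, Ret, En2 and Pitx3 did not pass in edgeR. The study had reported Th, Slc6a3, Ddc, Slc18a2, Gch1, Drd2, Ret, En1, En2 and Pitx3 as lower from these same libraries, and Aldh1a1 and Ndnf as well. Calls of these genes are thus not independent of its result. The median log2 fold change of the 16 was -2.34, and their summed level was 1170 to 2500 CPM in CTR and 371 to 532 CPM in SS. Nr4a2, which encodes a nuclear receptor of dopamine neurons, had the smallest p of those fitted higher (0.16 on the log2 scale, adjusted p = 0.90). Of 12 further subset markers, 1 passed, Aldh1a1, which makes retinoic acid and, like Ndnf, marks ventral neurons. It was at 166 to 345 CPM in CTR and 95.2 to 108 CPM in SS (log2 fold change -1.26, SE 0.18, adjusted p = 0.025 in edgeR's test). The median of the 12 was -0.39, with 10 fitted lower and 2 higher. Slc17a6, which loads glutamate into vesicles, was the most abundant of the 12 and had the smallest p of the genes fitted higher, at 0.20 on the log2 scale (SE 0.09, adjusted p = 0.75). Cck, Neurod6 and Vip had log2 fold changes of -1.63, -1.60 and -1.48 and did not pass in edgeR (adjusted p of 0.32, 0.75 and 0.73), and Sox6, a transcription factor of ventral neurons, and Otx2, one of ventral VTA neurons, had values of -0.12 and -0.11 (adjusted p of 0.94 and 0.98). Of these, Cck was without overlap between the groups, at 28 to 88.2 CPM in CTR and 10.7 to 21.3 CPM in SS, and passed in DESeq2 (adjusted p = 0.003).

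None of the relatives of the calcium-binding markers passed in edgeR, and 1, Necab3, passed in DESeq2 (adjusted p = 0.028). Of 24 further EF-hand genes 21 were tested, of which 19 were fitted lower and 6 had SS values below all CTR values, compared with 2.21% of all tested genes. The median log2 fold change was -0.24. The largest differences from CTR among these 6 were those of Cabp7, at 71.1 to 110 CPM in CTR and 47.1 to 64.9 CPM in SS (log2 fold change -0.60, adjusted p = 0.48), and of Necab3, at 38.0 to 55.8 and 30.5 to 35.1 CPM (-0.59, adjusted p = 0.42), both of them calcium-binding proteins of neurons. The smallest p in the other direction was that of Necab1, with 0.21 (adjusted p = 0.85).

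Of 15 genes of fast-firing neurons, the kind of cell that Pvalb often marks, none passed in edgeR and 4 passed in DESeq2, Spp1 and Kcnab2 among them. Of the 15, 12 were fitted lower and 5 were lower without overlap, compared with 2.21% of all tested genes, and the median was -0.30. Spp1, which encodes osteopontin, had the smallest p (log2 fold change -1.28, adjusted p = 0.24), and its 4 SS values, 3.89 to 6.63 CPM, lay below the CTR values of 7.97 to 13.9 CPM, with CTR-5 again the lowest of CTR. Vamp1, the most abundant, had -0.31 (adjusted p = 0.75), and Kcna1, with the smallest p among those fitted higher, had 0.12 (adjusted p = 0.95). The 9 listed genes of midbrain GABA neurons summed to 938 to 1100 CPM in CTR and 1020 to 1170 CPM in SS, with a median over the 8 tested of 0.01 and none that passed.

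The families of Anxa1 and Lpl gave no call. All 7 tested of 9 annexins and formyl peptide receptors were fitted lower, with a median log2 fold change of -0.21, none of them reached an unadjusted p under 0.05, and the receptors Fpr1 and Fpr2 were too rare to test. The most abundant, Anxa6, had a log2 fold change of -0.13, and Anxa7, with the smallest p, had -0.39 (adjusted p = 0.75). Of 14 genes that act with lipoprotein lipase 9 were tested, 3 fitted lower and 6 higher, with a median of 0.13. Apoe, the most abundant lipoprotein gene, had -0.29 (adjusted p = 0.75), and the lipoprotein receptor Lrp1 had 0.24 (adjusted p = 0.75). Gpihbp1, which anchors the lipase to capillaries, and its cofactor Apoc2 had no counts in any library.

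**Figure D4:**
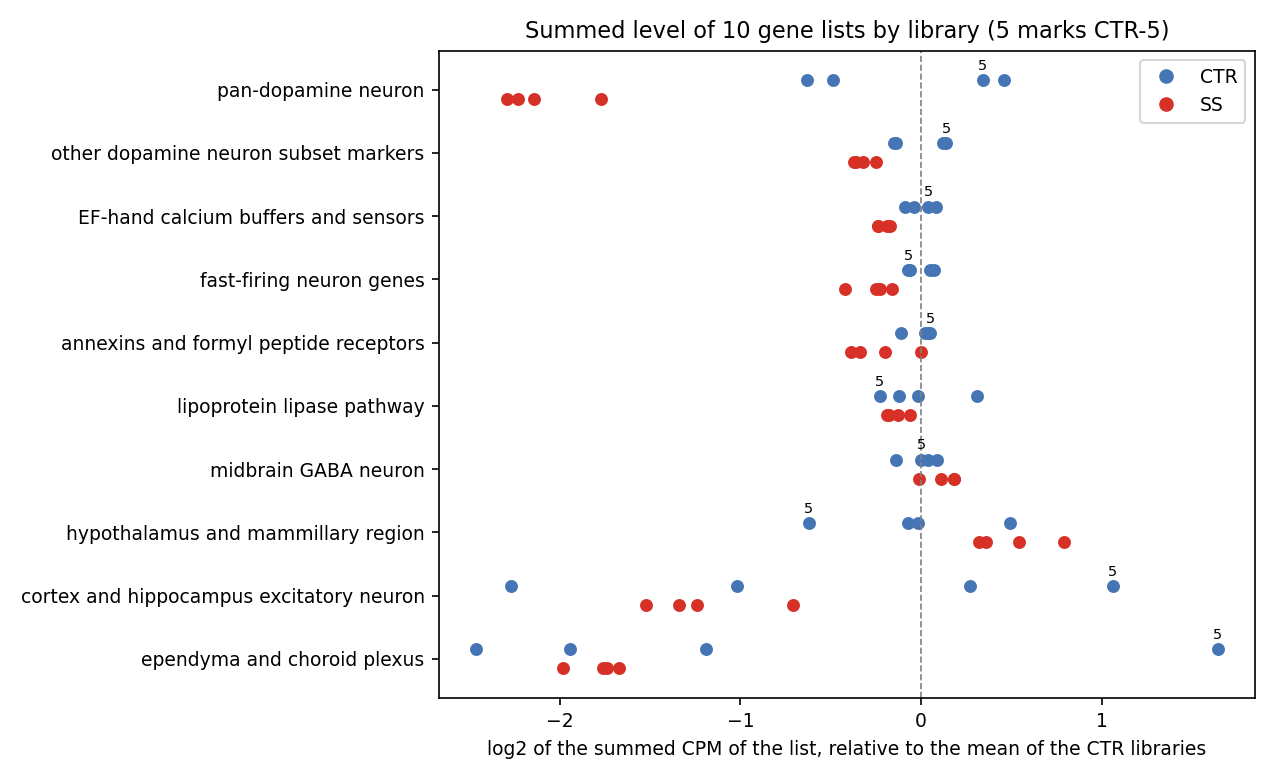
Summed CPM of 10 gene lists in each CTR (blue) and SS (red) library, on a log2 scale relative to the mean of the CTR libraries, with CTR-5 marked. The SS libraries of the pan-dopamine list lie at -2.29 to -1.77, below all of its CTR libraries, and CTR-5 is the highest library for the cortex and hippocampus list and for the ependyma and choroid plexus list.

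Other cell types were compared by lists of their markers, and no gene of these lists passed. Summed levels of oligodendrocyte genes were 22100 to 31400 CPM in CTR and 25200 to 28000 CPM in SS, those of astrocyte genes 816 to 999 and 837 to 944 CPM, those of endothelial genes 178 to 230 and 195 to 245 CPM, and those of microglia genes 259 to 359 and 247 to 281 CPM. These ranges overlapped. Microglial activation genes summed to 12.1 to 14.5 CPM in CTR and 6.82 to 15.2 CPM in SS, with Gpnmb at 0 in every library, and meningeal fibroblast genes to 21.5 to 36.3 and 30.6 to 38.9 CPM. Neighbouring regions overlapped as well, with 28 to 61.8 CPM in CTR and 27.7 to 36.3 CPM in SS for the thalamus, 12.8 to 20.5 and 8.54 to 23.3 CPM for the red nucleus and oculomotor nuclei, and 81.0 to 176 and 156 to 215 CPM for the hypothalamus and mammillary region, where Avp was at 0. In the last list 8 of the 9 tested genes were fitted higher in SS. Of these, 2 were higher without overlap, compared with 408 of the 16538 tested genes. Pmch, which encodes melanin-concentrating hormone, was at 0.207 to 16.7 CPM in CTR and 32.1 to 50.3 CPM in SS (log2 fold change 2.54, adjusted p = 0.61 in edgeR's test). Otp was at 0 to 1.5 CPM in CTR and 2.2 to 10.3 CPM in SS (log2 fold change 2.72, adjusted p = 0.70). The part of that region in the levels of the 6 markers was not tested.

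Across the 8 libraries the genes with the pattern most like each marker were found by Pearson's r of log2 CPM. The r is given as a description, since the libraries fall into 2 groups and share depth and composition. The closest genes were picked from all tested genes, so over so few libraries a high r also arises by selection. Closest to Ndnf were Fbxl16 (r = 0.979), Slc18a2 (r = 0.969), which loads dopamine into vesicles, and Etv5 (r = 0.965). After the group means were taken out, r was 0.972 for Fbxl16, 0.814 for Slc18a2 and 0.752 for Etv5. A high r did not mean a change of like size: the log2 fold change of Fbxl16 was -0.25 (SE 0.08, adjusted p = 0.74 in edgeR's test), against -1.65 for Ndnf. Closest to Pvalb were Psat1 (r = 0.991), an enzyme of serine synthesis, Tox (r = 0.982) and Mmp9 (r = 0.982), and closest to Lpl were Lrp11 (r = 0.944), Neurod6 (r = 0.941) and Cpne4 (r = 0.937), of which Neurod6 shared the high value of CTR-5. Calb1 was most like Vxn (r = 0.970), R3hdm4 (r = 0.962) and Gm6283 (r = 0.950), the last with a mean of only 0.648 CPM. Calb2 was most like Shisa4 (r = 0.984), Prkaca (r = 0.981) and Lrig3 (r = 0.980), and Anxa1 most like Cd276 (r = 0.967), Mettl4 (r = 0.966) and Tsr2 (r = 0.954). Among the markers themselves, r was highest for Anxa1 with Calb1 (0.820) and for Ndnf with Calb1 (0.808), and after the group means were taken out these were 0.670 and 0.508. Pvalb and Lpl had r = -0.851 after the group means were taken out, where CTR-5 was the lowest CTR library for one and the highest for the other.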

How the data were processed

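Raw read counts per gene of 8 libraries, 4 CTR and 4 SS, were used as deposited. The authors made these whole-number counts with htseq-count on an Ensembl annotation, from reads that had been trimmed (Cutadapt) and mapped to mm10 (STAR), without normalization. Groups were taken from the sample labels, which do not say whether mice shared a litter. By the study's methods litters were assigned to CTR or SS, and littermates could be used within a group. The tests treated the libraries as independent, so p-values rest on the spread between these libraries and take no account of litter.

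Genes were kept with filterByExpr of edgeR 4.0.16 at its defaults in R 4.3.3 (minimum count 10, minimum total count 15), libraries normalized with TMM and groups compared with glmQLFit and glmQLFTest, with the group as the only term. Adjusted p-values are Benjamini-Hochberg values over 16538 genes at 0.05, and the biological coefficient of variation was 0.384. Ratios of markers used log2 CPM with a prior count of 2 and an exact permutation test over 70 assignments. The tests of edgeR and DESeq2 were run on simulated counts with the same biological variation for every gene. An outlying library such as CTR-5 was not represented there, and the permutation test of the ratios was not simulated. Gene positions, exon lengths and overlaps came from GENCODE M21 (GRCm38), not from the annotation used for counting. Exon length covers the exons of all annotated transcripts of a gene, those with a retained intron included. Named genes were the 6 markers, Th, Slc6a3, sex-linked genes, the 3 genes most like each marker and, for the pathway lists, the most abundant gene and the smallest p in each direction. Not every gene named by this rule is reported here. Marker lists of other cell types are given by counts and summed levels only. Other named genes were chosen after their values were seen. The markers and lists were chosen with earlier results of these data known. Alternatives were DESeq2 1.42.0, limma voom (limma 3.58.1), edgeR's bias-adjusted estimate, other size factors, no filter, a mean count of at least 50, a threshold of 0.01, libraries left out, and the replicate number as a block.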

Additional observations from a re-analysis of the deposited data

Results flagged for a closer look

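The distance of the most extreme of 4 libraries to the next one, as a share of the whole spread of its group, was compared with Dixon's 95% limit for the 6 markers, Th, Slc6a3 and the summed levels of 18 lists. Of 52 groups 4 were past the limit, where chance gives about 2.6. For Lpl, CTR-5 was the highest CTR library at 55.7 CPM, with the others at 10.9 to 13.6 CPM (ratio 0.940). The same library was the highest of CTR for the summed genes of ependyma and choroid plexus, at 252 CPM against 14.7 to 35.3 CPM (ratio 0.913). For Th, SS-5 was the highest SS library at 25.5 CPM, with the others at 14.1 to 15.8 CPM (ratio 0.853). For the summed genes of the red nucleus and oculomotor nuclei, CTR-1 was the highest CTR library at 20.5 CPM, with the others at 12.8 to 14 CPM (ratio 0.842). CTR-5 and SS-5 are the libraries with Xist counts.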

How the results depend on the processing

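Ndnf was lower in SS under all 18 alternative fits and passed the threshold of 0.05 in 12. At the threshold of 0.01 it did not pass in edgeR's main fit (adjusted p = 0.021). At 0.05 Ndnf did not pass with the replicate number as a block (log2 fold change -1.50, adjusted p = 0.14) or without CTR-5 and SS-5 (-1.55, adjusted p = 0.12). It also did not pass without any 1 of the SS libraries (adjusted p 0.055 to 0.18). Without 1 library its log2 fold change was -1.83 to -1.45. Between libraries that share a replicate number, deviations from the group means were nearly uncorrelated over the tested genes (-0.006, -0.008 and 0.06). Such correlations cannot exclude a shared day, and CTR-5 and SS-5 share both a number and Xist counts. A litter shared by a CTR and an SS library is not foreseen in the study's methods, where litters were assigned to a group. With the block 9 genes passed, all among the 14 of the fit without it. The block turned the sign of Calb2, to 0.15, and left the other 4 markers lower without a call. Pvalb, lower under all alternatives, passed in DESeq2 (-1.20, adjusted p = 0.045), in DESeq2 without CTR-5 and SS-5 (-1.42, adjusted p = 8.7e-06) and without CTR-5 (range without 1 library -1.46 to -0.99). Calb1 passed in DESeq2 without CTR-5 and SS-5 alone (-0.59, adjusted p = 0.044), an alternative chosen after seeing the data. Without 1 library Calb2 ranged from -0.20 to 0.12, Lpl from -1.62 to -0.41 and Anxa1 from -3.83 to -2.11, and none of the 3 passed under any alternative run. DESeq2 without CTR-5 and SS-5 gave no adjusted p for Lpl and Anxa1.

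Over all genes the count of 14 became 81 in DESeq2, 399 in DESeq2 without CTR-5 and SS-5, 27 with the bias-adjusted estimate, 22 without a filter, 22 with a mean count of at least 50, 9 with the replicate block, 9 without CTR-5 and SS-5, 7 at an adjusted p under 0.01 and 6 to 19 without 1 library. The count of 2 pairs without overlap became 4 without CTR-5 and SS-5, 2 to 4 without 1 library, and 7 pairs whose ratio moved one way in all 3 pairs of libraries that share a number (replicate block). The difference of Ndnf minus Pvalb was -0.74 to 0.03 without 1 library, turning without CTR-5, and that of Pvalb minus Lpl was -0.95 to 0.41 without 1 library and 0.11 with the replicate block. The causes were not tested. With 3 counts as the floor, an Anxa1 level under 0.113 CPM could not be seen in SS-4.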
